A study of Mus musculus with 12 samples.

Results

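The genes described here are 10 imprinted genes that are linked to growth: Cdkn1c, Grb10, Plagl1, H19, Igf2, Meg3, Dlk1, Peg3, Ndn and Mest. They were chosen by name, and their probes were found by the gene name in the scanner files or through the probe's accession, as with Meg3, which the array design lists under an older name. This gave 21 probes of 41174 on the array, of which 17 passed the filter on dim probes, so that all 10 genes were among the 15234 genes tested. RNA of whole gastrocnemius, a calf muscle, of adult male CD1 mice was hybridised to 12 one-colour arrays, 3 for each of 4 groups. The groups were Smad4 knockout (KO) muscle denervated for 14 days, wild-type (WT) muscle denervated for 14 days, KO control muscle and WT control muscle. The labels describe 3 independent experiments per condition with different animals, and name neither the cells in which Smad4 was deleted nor the means of deletion. They do not say whether 1 mouse gave both the denervated and the control muscle of a number.

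An imprinted gene is read mainly from the copy inherited from 1 parent. In mice Igf2, Dlk1, Peg3, Mest, Plagl1 and Ndn are expressed from the paternal copy, and H19, Meg3 and Cdkn1c from the maternal copy, while Grb10 is maternal in most tissues and paternal in the brain. Many of these genes are highly expressed in the embryo, are turned down after birth, and have been studied in muscle development and regeneration. The arrays measured total signal per gene and cannot tell the parental copies apart.

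All levels below are log2 of the processed signal minus the 75th percentile of the same array, so that a level of 0 means a signal equal to that percentile. Levels of different probes cannot be compared with each other. Changes are differences on this log2 scale with their standard error (SE) from limma, fitted to all 12 arrays, and a gene was called when its p-value, adjusted over all genes tested by Benjamini-Hochberg, was under 0.05. Across arrays, 50.17% to 56.41% of probes were well above background by the scanner software's mark, the 75th percentile was 218.7 to 363.9 in units of intensity, and the scanner marked 0 spots as saturated. Within a group, 2 arrays correlated with an r of 0.974 to 0.985 across genes, which are not independent replicates. Precision is limited by having 3 arrays a group. Smad4 was lower in KO muscle, with means of 1.90 for KO and 3.32 for WT denervated muscle and of 2.33 for KO and 3.79 for WT control muscle. The difference was -1.42 in denervated muscle and -1.46 in control muscle, both called by limma (adjusted p = 0.0016 and 0.019). The fibre markers Acta1, Ckm, Tnnt3, Mb and Myh4 were well above background on all 12 arrays.

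The probe that stood for each of the 10 genes, the kept probe with the highest mean signal, was well above background on all 12 arrays. The genes lie on 5 chromosomes, and 5 of them on chromosome 7. In the positions of the array files, which are on mouse build mm8, the probes of H19 and Igf2 lay 74.9 kb apart on chromosome 7, those of Igf2 and Cdkn1c 808.0 kb apart, and those of Dlk1 and Meg3 111.0 kb apart on chromosome 12. No annotation of build mm8 was used, so exons and untranslated regions are not assigned to probes.

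The study asked how muscle without its nerve differs with and without Smad4, the Smad protein shared by the TGF-beta and BMP pathways. The genes of this network divided into those that moved with denervation in both genotypes, namely Peg3 and Dlk1, those whose level in denervated muscle differed between genotypes, namely Cdkn1c and H19, and 6 whose brightest probe was called in no comparison.

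**Figure D1:**
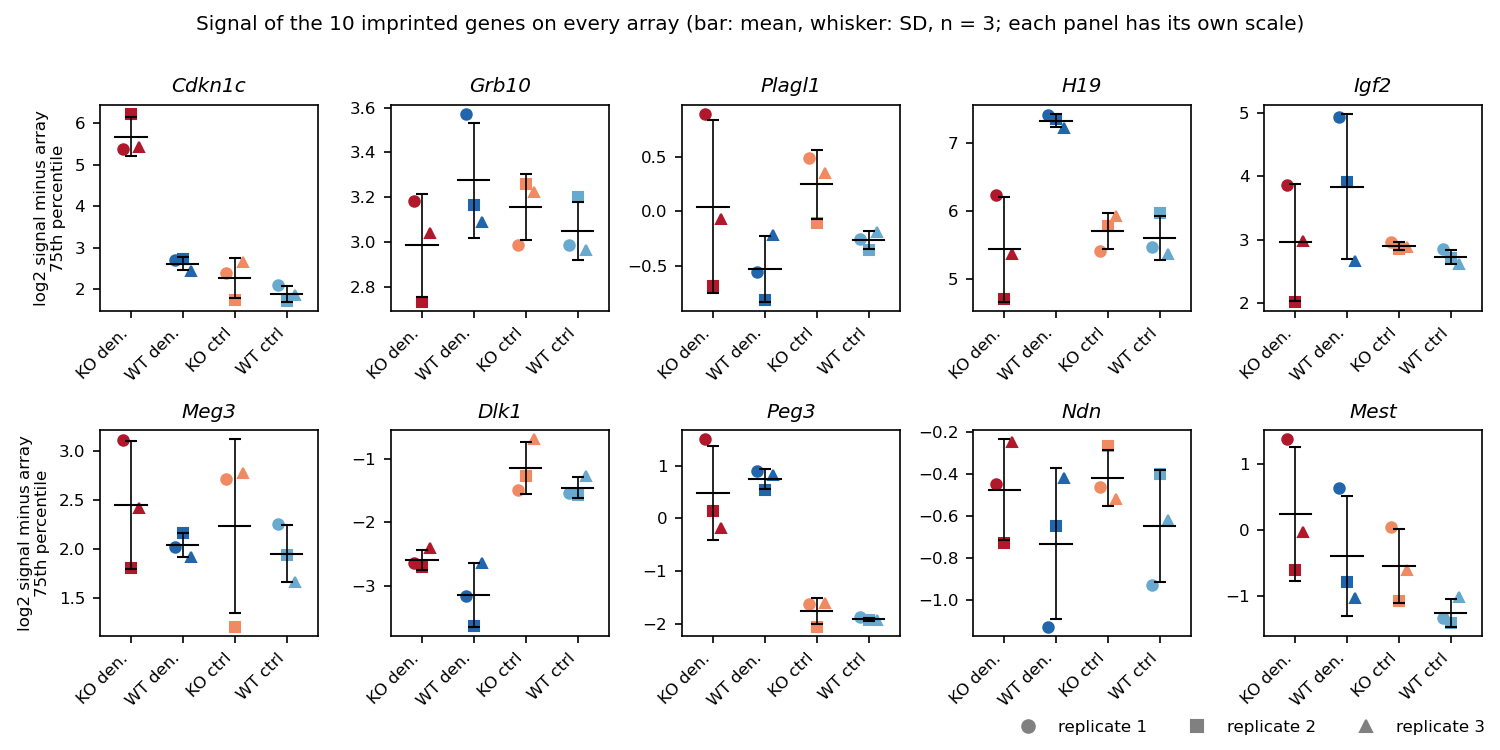
Level of each of the 10 imprinted genes on each of the 12 arrays, as log2 processed signal minus the 75th percentile of the array; points are arrays, with a symbol for each replicate number, horizontal bars are group means and whiskers are SDs (n = 3). The KO denervated arrays stand apart for Cdkn1c, the WT denervated arrays for H19, and both denervated groups for Peg3 and Dlk1.

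Cdkn1c encodes p57, an inhibitor of cyclin-dependent kinases that holds cells out of the cell cycle. It was far higher in KO denervated muscle than in any other group. Its probe, A_51_P339540, lies at chr7:143268238-143268297 on the minus strand (mm8). The level was 5.37, 6.21 and 5.43 on the KO denervated arrays and 2.69, 2.72 and 2.43 on the WT denervated arrays. It was 2.39, 1.73 and 2.66 on the KO control arrays and 2.09, 1.72 and 1.85 on the WT control arrays. The lowest KO denervated array was therefore above every other array, while the KO control and WT control arrays overlapped. The group means were 5.67 ± 0.47 for KO denervated, 2.61 ± 0.16 for WT denervated, 2.26 ± 0.47 for KO control and 1.89 ± 0.19 for WT control muscle (SD, n = 3 each).

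Denervated KO muscle had 8.33 times the Cdkn1c signal of denervated WT muscle, a log2 difference of 3.06 ± 0.27 (SE, limma adjusted p = 0.000404). In this comparison 2.19% of all genes were called, 0.958% higher and 1.23% lower, and 2 of the 10 imprinted genes were called, Cdkn1c higher and H19 lower. The KO and WT denervated arrays did not overlap for these 2 genes, as for 21.7% of all genes. Of all 333 calls 43.8% were higher in KO muscle, and with arrays scaled to their median 32.2% of 363 calls were, but Cdkn1c and H19 kept their calls and signs under that scaling. In control muscle the KO minus WT difference of Cdkn1c was 0.38 (95% interval -0.21 to 0.96, limma adjusted p = 0.9997). Within KO muscle Cdkn1c rose with denervation by 3.41 ± 0.27, which is 10.6-fold (limma adjusted p = 3.72e-06). Within WT muscle the denervated arrays all lay above the control arrays, with a change of 0.73 ± 0.27, but the adjusted p of 0.0501 in limma missed the threshold. It passed without KO denervated replicate 2 (limma adjusted p = 0.0252) or KO control replicate 2 or 3 (limma adjusted p = 0.0274 and 0.0435). KO arrays are not part of this change, which stayed at 0.73 in those fits. With any single array left out the change was 0.64 to 0.83 and the limma adjusted p 0.0252 to 0.138. The WT change also passed with quantile normalization (limma adjusted p = 0.04) or a filter on all 12 arrays (0.0389), and at the edge of the threshold with the mean of probes (0.05). With slides as a block the change was 0.42 (limma adjusted p = 0.314), and with replicate numbers as a block the limma adjusted p was 0.0768. The difference between these responses, the interaction of genotype and denervation, was 2.68 ± 0.38 and was called by limma (adjusted p = 0.0297), as were 0.184% of all genes (0.0985% above 0 and 0.0853% below). That call was lost with normexp background correction (2.82, limma adjusted p = 0.248), without a filter on dim probes (2.68, limma adjusted p = 0.0986), with slides as a block (2.83, limma adjusted p = 0.0585) and with replicate numbers as a block (2.68, limma adjusted p = 0.0644). It was also lost when any of WT control replicates 1 to 3, WT denervated replicates 2 and 3 and KO control replicates 1 and 2 was left out, where the limma adjusted p was 0.0514 to 0.0929, and its size stayed between 2.41 and 2.88 when single arrays were left out.

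The 12 arrays lay on 4 slides, none of which held all 4 groups. Within slides the KO minus WT difference of Cdkn1c in denervated muscle was 2.68 on slide 1 and 3.64 on slide 4, and with slides as a block it was 3.14. The rise with denervation in KO muscle was 2.78 on slide 3 and 3.82 on slide 4. In WT muscle, slide 1 alone held both conditions and gave 0.61. Cdkn1c was therefore higher in KO denervated muscle on each slide that allowed the comparison, with 1 or 2 arrays a side.

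The Cdkn1c paralogs Cdkn1a (p21) and Cdkn1b (p27), which inhibit the same kinases, followed other courses. Cdkn1a averaged 5.91 in KO denervated and 5.20 in WT denervated muscle, and 1.12 in KO control and 0.14 in WT control muscle. It rose with denervation in both genotypes, by 4.79 ± 0.29 in KO and 5.05 ± 0.29 in WT muscle, and its KO minus WT difference in denervated muscle was 0.71 (limma adjusted p = 0.261). The brighter probe of Cdkn1b changed by -0.40 in KO and -0.13 in WT muscle and was called in neither. Its other probe changed by -1.17 in KO muscle, which was called by limma (adjusted p = 0.00687), and by -0.58 in WT muscle, which was not. The genes nearest to Cdkn1c by the distance between 12-array profiles, each centred on its mean, were Gdf15 at 1.27 and Btla at 1.37, where Cdkn1c itself lay 5.30 from a flat profile. Gdf15, a secreted stress-responsive member of the TGF-beta superfamily, averaged -0.07 for KO denervated, -2.74 for WT denervated, -3.25 for KO control and -3.62 for WT control muscle. Btla was dim, most of all outside KO denervated muscle. It averaged -2.68 for KO denervated, -5.26 for WT denervated, -6.15 for KO control and -6.47 for WT control muscle.

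H19, a long noncoding RNA that restrains growth in mouse embryos and is abundant in muscle, rose with denervation in WT muscle and was lower in KO denervated than in WT denervated muscle. Its transcript holds the precursor of miR-675, and the neighbouring Igf2 gene holds that of miR-483. The arrays measured the long transcripts and not the mature miRNAs, whose sequences are shown because they are the known small RNA products of these genes. They are from RefSeq (GRCm38.p6), 5′ to 3′, with the seed in capitals:
mmu-miR-675-5p: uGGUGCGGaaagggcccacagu
mmu-miR-675-3p: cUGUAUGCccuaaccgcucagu
mmu-miR-483-5p: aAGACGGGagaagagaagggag
mmu-miR-483-3p: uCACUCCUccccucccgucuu
The seeds of these 4 differ from each other, and no seed is shared among the 9 mature miRNAs that RefSeq places inside H19, Igf2, Meg3 and Mest.

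The brighter H19 probe, A_51_P142196 (chr7:142385254-142385313, minus strand, mm8), had levels of 6.24, 4.71 and 5.37 in KO denervated muscle and 7.42, 7.36 and 7.23 in WT denervated muscle. Its levels were 5.42, 5.78 and 5.93 in KO control muscle and 5.48, 5.98 and 5.37 in WT control muscle. The 3 WT denervated arrays were above all others and close together, whereas the KO denervated arrays spread around the control arrays. The means were 5.44 ± 0.77 for KO denervated, 7.33 ± 0.10 for WT denervated, 5.71 ± 0.27 for KO control and 5.61 ± 0.33 for WT control muscle (SD, n = 3 each).

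In denervated muscle H19 was 3.72-fold lower in KO than in WT, a log2 difference of -1.90 ± 0.32 (limma adjusted p = 0.0125). It rose with denervation in WT muscle by 1.73 ± 0.32, which is 3.31-fold (limma adjusted p = 0.00169). In KO muscle the change was -0.27 (95% interval -0.98 to 0.44, limma adjusted p = 0.514). The interaction was -2.00 ± 0.46 and was not called by limma (adjusted p = 0.143). It was called without KO denervated replicate 1, the highest of that group (-2.40, limma adjusted p = 0.0214). In control muscle the KO minus WT difference was 0.10 (95% interval -0.61 to 0.81).

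The second H19 probe, A_52_P571350, showed the same order of groups, with 5.38, 3.48 and 4.34 in KO denervated muscle, 6.43, 6.17 and 6.09 in WT denervated muscle, 4.40, 4.57 and 4.76 in KO control muscle and 4.36, 4.94 and 4.25 in WT control muscle. Tested among all kept probes, it differed between KO and WT denervated muscle by -1.83 (limma adjusted p = 0.0345) and rose with denervation in WT muscle by 1.71 (limma adjusted p = 0.00458). Within slides the KO minus WT difference of the brighter probe in denervated muscle was -1.17 on slide 1 and -2.59 on slide 4, and it was -2.03 with slides as a block (limma adjusted p = 0.0185). The genotype call was lost without WT denervated replicate 2 (-1.88, limma adjusted p = 0.0525) and with normexp background correction (-1.75, limma adjusted p = 0.162). The profiles nearest to H19 were those of Hspb7, a small heat shock protein of striated muscle, at a distance of 1.05, and of Atoh8, a helix-loop-helix transcription factor, at 1.20. H19 lay 2.92 from a flat profile. Hspb7 averaged 3.96 for KO denervated, 5.57 for WT denervated, 4.04 for KO control and 3.79 for WT control muscle.

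Igf2, the growth factor that signals through the type 1 IGF receptor and the insulin receptor, varied widely among denervated muscles of both genotypes. Its brighter probe, A_51_P516826 (chr7:142460185-142460245, minus strand, mm8), is printed as 10 spots on each array, which were averaged. The level was 3.86, 2.03 and 2.99 in KO denervated muscle and 4.94, 3.91 and 2.67 in WT denervated muscle. It was 2.97, 2.86 and 2.88 in KO control muscle and 2.85, 2.71 and 2.63 in WT control muscle. The SD was 0.92 in KO denervated and 1.14 in WT denervated muscle, against 0.06 in KO control and 0.11 in WT control muscle (n = 3 each). The other probe, A_51_P516833, gave a change with denervation of -0.19 in KO and 1.15 in WT muscle.

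The change of Igf2 with denervation was 0.06 in KO muscle (95% interval -1.08 to 1.19) and 1.11 in WT muscle (95% interval -0.03 to 2.25), and limma called neither (adjusted p = 0.939 and 0.112). Its KO minus WT difference in denervated muscle was -0.88 (95% interval -2.02 to 0.26, limma adjusted p = 0.437). Without WT denervated replicate 1 the WT change was 0.56 (limma adjusted p = 0.383). It was called without WT denervated replicate 3 (1.70, limma adjusted p = 0.0149), with slides as a block (1.51, limma adjusted p = 0.0356) and with scan days as a block (1.77, limma adjusted p = 0.0171). WT denervated replicates 2 and 3 were on the slide of the second scan day, with KO denervated replicate 2 and KO control replicate 1. Within slides the WT change was 2.09 on slide 1, and the KO change was 0.11 on slide 3 and -0.94 on slide 4.

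Of 7 partners of Igf2, 5 were tested. Igf2r, an imprinted receptor that takes Igf2 into the cell for breakdown, rose with denervation in both genotypes, by 1.30 ± 0.15 in KO and 1.37 ± 0.15 in WT muscle. The RNA-binding protein Igf2bp2 averaged -2.03 in KO denervated and -1.72 in WT denervated muscle, and -2.35 in KO control and -3.31 in WT control muscle. It rose in WT muscle by 1.59 ± 0.22 (limma adjusted p = 0.000211), while its change in KO muscle was 0.32 (limma adjusted p = 0.245), and the interaction of -1.27 was not called by limma (adjusted p = 0.16). The insulin receptor gene Insr fell by 0.38 in KO muscle (limma adjusted p = 0.0281) and changed by 0.10 in WT muscle, which was not called. The brightest probe of the receptor gene Igf1r was called in neither genotype, although 2 of its other probes were higher after denervation in both. The ligand gene Igf1 was not called. None of the 5 was called between KO and WT in either condition.

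Peg3 encodes a zinc finger protein of stem and progenitor cells, including those of muscle, and rose with denervation in both genotypes. In its promoter and that of Dlk1 below, capitals mark the letters CAGAC or their reverse complement GTCTG, the core of a Smad-binding element. The promoter from 250 bases before to 50 bases after the start site is shown because the gene moved in both genotypes. It lies at chr7:6730370-6730669 (minus strand, RefSeq, GRCm38.p6) and reads, 5′ to 3′:
Peg3 promoter: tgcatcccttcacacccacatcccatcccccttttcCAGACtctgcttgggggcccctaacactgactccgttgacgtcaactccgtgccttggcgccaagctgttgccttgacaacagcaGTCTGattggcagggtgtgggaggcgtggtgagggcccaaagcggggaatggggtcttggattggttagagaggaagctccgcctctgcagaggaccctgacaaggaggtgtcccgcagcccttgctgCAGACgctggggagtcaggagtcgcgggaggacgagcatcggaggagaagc
The matches start at -214, -129 and -1 relative to the start site.

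The brighter Peg3 probe, A_51_P206037 (chr7:6311815-6311874, minus strand, mm8), had levels of 1.50, 0.15 and -0.18 in KO denervated muscle and 0.91, 0.54 and 0.82 in WT denervated muscle. Its levels were -1.63, -2.05 and -1.60 in KO control muscle and -1.88, -1.93 and -1.94 in WT control muscle. All 6 denervated arrays lay above all 6 control arrays, and the KO and WT arrays of a condition overlapped. The rise was 2.25 ± 0.34 in KO muscle, which is 4.76-fold (limma adjusted p = 0.000341), and 2.67 ± 0.34 in WT muscle, which is 6.37-fold (limma adjusted p = 0.000147). The KO minus WT difference was -0.26 in denervated muscle (95% interval -1.02 to 0.49), and the interaction was -0.42 (95% interval -1.49 to 0.65).

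The second kept Peg3 probe, A_52_P235861, rose by 2.32 in KO and 2.96 in WT muscle, and was well above background on 2 of 3 control arrays of each genotype. Within slides the KO change was 1.42 on slide 3 and 1.78 on slide 4, and the WT change was 2.79 on slide 1. Usp29, which is transcribed away from Peg3 from the same imprinted start region in the mouse, also rose in both genotypes, by 2.81 ± 0.55 in KO and 2.13 ± 0.55 in WT muscle (limma adjusted p = 0.0016 and 0.0101). The nearest profiles to Peg3 were those of Tgif1, a homeobox repressor that acts in TGF-beta signalling, at 1.19, and Csrp3, a muscle LIM protein, at 1.36, where Peg3 lay 4.48 from a flat profile.

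Dlk1, a transmembrane protein related to Notch ligands that restrains fat cell formation, fell with denervation in both genotypes. Its promoter window, chr12:109452573-109452872 (plus strand, RefSeq, GRCm38.p6), reads, 5′ to 3′, with the same capitals:
Dlk1 promoter: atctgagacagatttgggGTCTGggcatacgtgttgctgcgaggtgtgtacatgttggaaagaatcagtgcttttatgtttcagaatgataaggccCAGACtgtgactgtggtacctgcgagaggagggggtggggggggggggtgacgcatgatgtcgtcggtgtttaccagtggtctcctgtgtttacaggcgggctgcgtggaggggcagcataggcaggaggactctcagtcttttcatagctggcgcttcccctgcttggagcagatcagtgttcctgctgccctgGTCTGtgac
The matches start at -232, -154 and 41. RefSeq gave 15 promoter windows for 8 of the 10 genes. The letters CAGAC, on either strand, were in 8 of these 15 windows, or 53.3%, and in 49.6% of 32851 mouse promoter windows of the same length. The palindrome GTCTAGAC, a second Smad4 motif, was in 0 of the 15 windows and in 0.213% of all. The E-box CAGCTG was in 1 of the 15, or 6.67%, and in 16.3% of all, all searched on both strands. None of these motifs contains another, and a match is a description of the letters only.

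The brighter Dlk1 probe, A_51_P135618 (chr12:109908264-109908323, plus strand, mm8), had levels of -2.65, -2.71 and -2.41 in KO denervated muscle and -3.16, -3.63 and -2.63 in WT denervated muscle. Its levels were -1.49, -1.27 and -0.69 in KO control muscle and -1.53, -1.56 and -1.27 in WT control muscle. Every denervated array was below every control array, and the genotypes overlapped within each condition. Dlk1 fell by 1.44 ± 0.26 on the log2 scale in KO muscle (2.71-fold, limma adjusted p = 0.001) and by 1.69 ± 0.26 in WT muscle (3.22-fold, limma adjusted p = 0.000478).

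The second Dlk1 probe fell by 1.58 in KO and by 1.47 in WT muscle, and was well above background on 1 of 3 denervated and 3 of 3 control arrays of each genotype. The Dlk1 signal was dim, and its call did not hold with normexp background correction, which adds an offset to every signal. The change was then -0.60 in KO and -0.46 in WT muscle (limma adjusted p = 0.274 and 0.479). The KO minus WT difference in denervated muscle was 0.55 (95% interval -0.01 to 1.12, limma adjusted p = 0.321). The nearest profiles to Dlk1 were those of Vtn, a secreted adhesion protein, at 0.76, and Higd1b at 0.82, where Dlk1 lay 2.98 from a flat profile.

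Meg3, the maternally expressed long noncoding RNA of the Dlk1 domain, was not called in any comparison. Its brighter probe, A_51_P455997, had levels of 3.11, 1.81 and 2.42 in KO denervated muscle, 2.03, 2.17 and 1.92 in WT denervated muscle, 2.71, 1.21 and 2.77 in KO control muscle and 2.26, 1.94 and 1.67 in WT control muscle. All 4 groups overlapped. The change with denervation was 0.21 in KO muscle (95% interval -0.69 to 1.11) and 0.08 in WT muscle (95% interval -0.82 to 0.99). Of its 4 probes, 2 were not well above background on any array. The further noncoding genes Rian and Mirg of the domain were not called either, whereas Dio3, a deiodinase that inactivates thyroid hormone, rose by 1.84 ± 0.35 in KO and 2.16 ± 0.35 in WT muscle (limma adjusted p = 0.0015 and 0.00067). Dio3 was well above background on all 6 denervated arrays and on 1 of 3 control arrays of each genotype.

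Mest, which encodes a protein of the hydrolase fold family, had its highest levels on replicate 1 in all groups other than WT control. It read 1.37, -0.60 and -0.03 in KO denervated muscle, 0.64, -0.79 and -1.04 in WT denervated muscle, 0.03, -1.08 and -0.61 in KO control muscle and -1.33, -1.41 and -1.02 in WT control muscle. The change with denervation was 0.79 in KO muscle (95% interval -0.36 to 1.94) and 0.86 in WT muscle (95% interval -0.29 to 2.01), and limma called neither (adjusted p = 0.233 and 0.219). Its neighbour Copg2, a coat protein gene transcribed toward it, rose by 1.20 in KO and 0.91 in WT muscle (limma adjusted p = 0.0033 and 0.0183).

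Grb10, an adaptor that restrains insulin and IGF receptor signalling, averaged 2.99 for KO denervated, 3.27 for WT denervated, 3.16 for KO control and 3.05 for WT control muscle. Its change was -0.17 in KO muscle (95% interval -0.55 to 0.21) and 0.22 in WT muscle (95% interval -0.16 to 0.61). A further, dim probe of Grb10 was lower by 1.04 in KO denervated than in KO control muscle and was not well above background on any KO denervated array, while the other 2 probes were not called. Its paralog Grb14 fell in both genotypes, by 1.91 ± 0.23 in KO and 2.53 ± 0.23 in WT muscle.

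Plagl1, a zinc finger factor that regulates other imprinted genes in the mouse, averaged 0.04 for KO denervated, -0.53 for WT denervated, 0.25 for KO control and -0.27 for WT control muscle. Its KO minus WT difference was 0.57 in denervated muscle (95% interval -0.16 to 1.30) and 0.52 in control muscle (95% interval -0.22 to 1.25). Ndn (necdin), a MAGE family protein that promotes the survival and differentiation of mouse myoblasts, averaged -0.47 for KO denervated, -0.73 for WT denervated, -0.42 for KO control and -0.65 for WT control muscle. Its change with denervation was -0.06 in KO muscle (95% interval -0.52 to 0.40) and -0.08 in WT muscle (95% interval -0.54 to 0.38). Its relative Maged1 rose by 2.40 ± 0.13 in KO and 2.36 ± 0.13 in WT muscle.

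Of the 10 genes, 3 were called with denervation in each genotype. In KO muscle these were Cdkn1c and Peg3 (higher) and Dlk1 (lower), while 46.9% of all genes were called, 23.7% higher and 23.2% lower. The groups did not overlap for these 3 genes, as for 56.7% of all genes. In WT muscle they were Peg3 and H19 (higher) and Dlk1 (lower), while 39.2% of all genes were called, 18.7% higher and 20.6% lower. The groups did not overlap for these 3 and Cdkn1c, as for 53.0% of all genes. These shares are near or below the background, so the count alone does not set the 10 genes apart from other genes. Their median change was 0.00 in KO and 0.48 in WT muscle, against 0.00 in KO and -0.02 in WT muscle for all genes. The comparisons of KO with WT use the same arrays as the denervation comparisons and are not independent of them.

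In control muscle 0 of the 10 genes were called between KO and WT by limma, and 0 had an unadjusted p under 0.05. Of all genes 0.00656% were called, a single gene, Smad4. All 10 differences were above 0, as were 7190 of the 15234 genes tested, with a median of 0.26 against -0.01 for all genes. The 10 genes were measured on the same arrays, so their signs are not independent of each other. The KO and WT arrays did not overlap for Igf2 and Plagl1, as for 8.55% of all genes. Averaged over both conditions Cdkn1c was higher in KO muscle by 1.72 ± 0.19 (limma adjusted p = 0.00276), where 0.912% of all genes were called (0.486% higher and 0.427% lower), and H19 was not called (-0.90, limma adjusted p = 0.117). That average combines a called difference in denervated muscle with an uncalled one in control muscle.

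**Figure D2:**
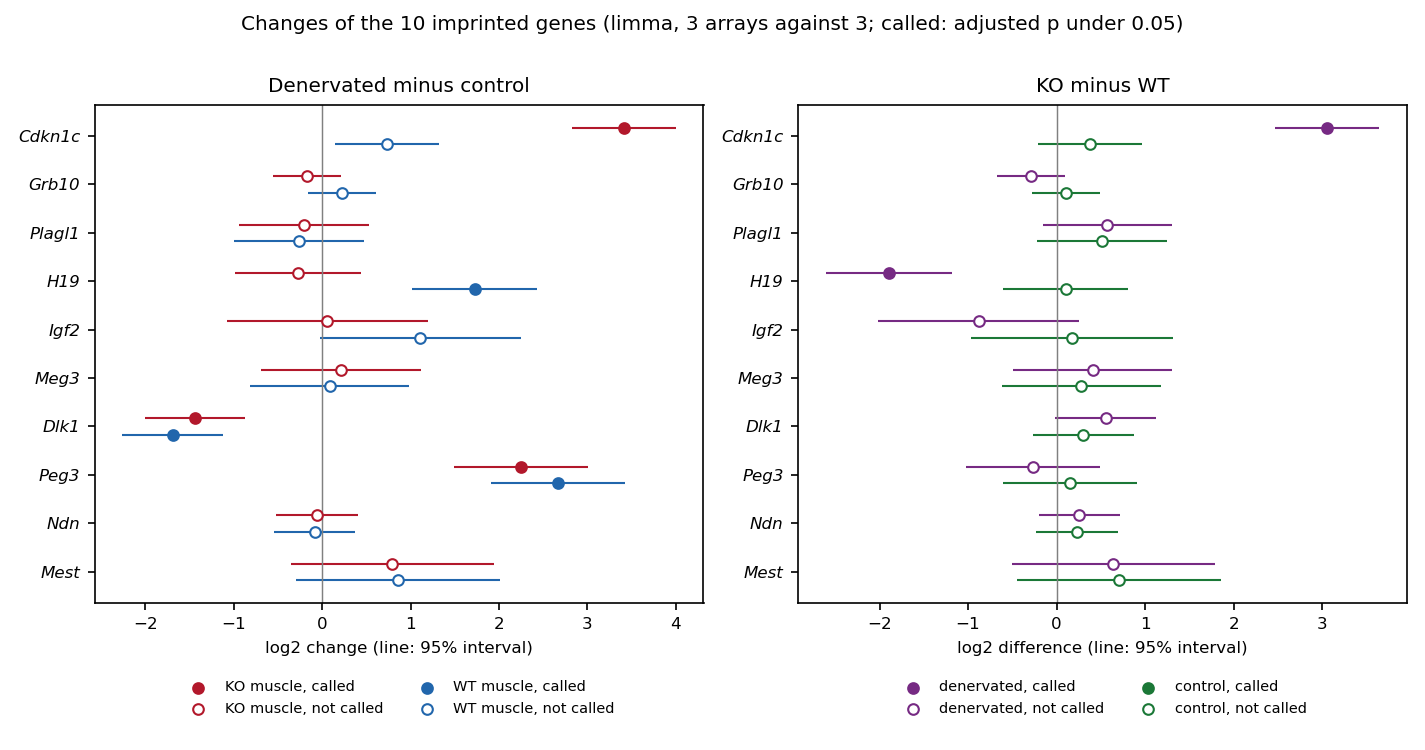
Log2 change with denervation in KO and WT muscle (left) and log2 difference of KO minus WT in denervated and control muscle (right) for the 10 imprinted genes; points are limma estimates, lines are 95% intervals, and filled points have an adjusted p under 0.05. Cdkn1c at 3.06 and H19 at -1.90 are the filled points on the right, while Peg3 and Dlk1 are filled in both genotypes on the left.

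The median range over the 3 replicates was 1.42 for the 10 genes and 0.444 for all genes tested in KO denervated muscle, where Dlk1, Grb10 and Ndn had ranges of 0.295, 0.450 and 0.476. The median range was 0.54 against 0.425 in WT denervated, 0.561 against 0.402 in KO control and 0.333 against 0.386 in WT control muscle. Replicate 1 was the highest KO denervated array for 7 of the 10 genes, as for 27.7% of all genes, and replicate 2 was the lowest for 8 of the 10, as for 31.9% of all genes. Cdkn1c ran the other way, with replicate 2 at 0.54 above and replicate 1 at 0.30 below its group mean in KO denervated muscle. KO denervated replicates 1, 2 and 3 lay on slides 1, 4 and 3, and the part of the slide in this spread was not tested.

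**Figure D3:**
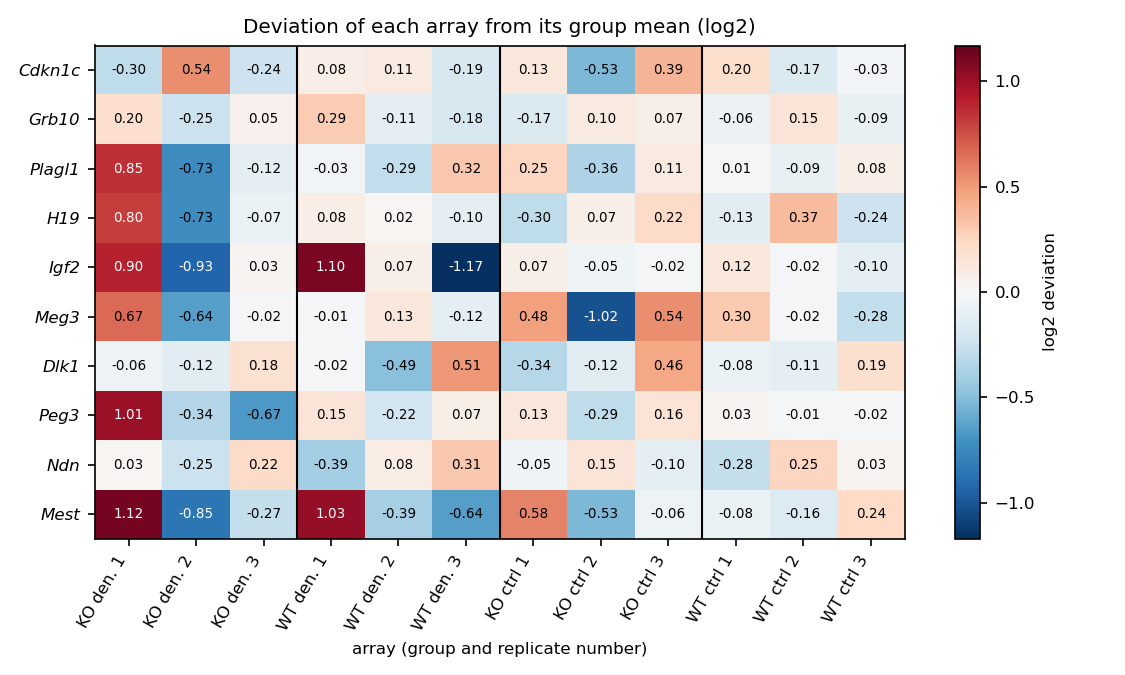
Deviation of each of the 12 arrays (columns, by group and replicate number) from the mean of its group for each of the 10 genes (rows), as a log2 difference shown by colour and number. KO denervated replicate 1 is above its group mean for H19 (0.80), Igf2 (0.90), Peg3 (1.01) and Mest (1.12), and replicate 2 is below it for the same genes.

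Levels in whole muscle also depend on which cells the sample holds, and fewer cells of a type cannot be told apart from less RNA per cell in these data. Lists of markers for 8 cell types were therefore read beside the results, and each list was summed on the linear scale and given as log2. The fibroblast sum, over 8 of 8 markers, was 6.65 to 7.26 in KO denervated and 6.12 to 6.47 in WT denervated muscle, and 6.22 to 7.33 in KO control and 6.25 to 6.59 in WT control muscle. The satellite cell sum, over 6 of 6 markers, was 2.40 to 2.97 in KO denervated and 3.03 to 3.38 in WT denervated muscle, and 2.31 to 2.83 in KO control and 2.30 to 2.63 in WT control muscle. The smooth muscle and pericyte sum, over 5 of 5, was 6.39 to 6.90 in KO denervated and 7.32 to 7.55 in WT denervated muscle, and 8.004 to 8.27 in KO control and 7.88 to 8.29 in WT control muscle. These 3 sums, and that of the Schwann cell markers, did not overlap between KO and WT denervated muscle, where Cdkn1c and H19 differed. The brightest markers carry such sums, and in each of these lists 1 or more markers ran the other way. The 2 brightest satellite cell markers, Cdh15 and Chrdl2, averaged 2.24 and 0.22 in KO denervated and 2.58 and 1.23 in WT denervated muscle. Of the 6 satellite cell markers, 4 were higher in KO denervated muscle, with a median KO minus WT difference of 0.42, among them Pax7 at -3.09 in KO and -3.75 in WT denervated muscle. These 4 include Myf5 and Calcr, which passed the filter on dim probes only through the KO denervated arrays. The count and the median therefore rest partly on that filter. The brightest smooth muscle marker, Acta2, averaged 6.56 in KO denervated and 7.32 in WT denervated muscle by its brightest probe, while its 3 other kept probes were higher in KO, as with A_52_P420504 at 3.01 in KO and 2.35 in WT denervated muscle. Of the 5 smooth muscle and pericyte markers, 3 were higher in KO denervated muscle, with a median difference of 0.33. The sums therefore do not give a direction for satellite cells or for smooth muscle cells and pericytes. Of the 8 fibroblast markers, 7 were higher and 1 was lower in KO denervated muscle, with a median difference of 0.38. Of the 6 Schwann cell markers, 4 were higher and 2 were lower there, with a median difference of 0.44. The gene Calcr is in both the satellite cell list and the list of further imprinted genes. Of the 46 markers tested, limma called 0 between KO and WT in either condition, with 9 at an unadjusted p under 0.05 in denervated and 3 in control muscle. Of all genes 2.19% were called in denervated and 0.00656% in control muscle, so the count of 0 does not set the markers apart from other genes. The part of these cells in the levels of Cdkn1c and H19 was not tested.

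With denervation the Schwann cell sum, over 6 of 6 markers, was 1.00 to 1.19 in KO denervated and 2.18 to 3.45 in KO control muscle, and 0.23 to 0.75 in WT denervated and 2.39 to 3.16 in WT control muscle. The endothelial sum, over 6 of 6, was 3.74 to 3.90 in KO denervated and 4.47 to 4.66 in KO control muscle, and 3.51 to 3.87 in WT denervated and 4.25 to 4.61 in WT control muscle. Among single markers, 6 endothelial markers fell in KO and 5 in WT muscle, and 4 Schwann cell markers fell in each, where 23.2% of all genes fell in KO and 20.6% in WT muscle. Of the smooth muscle and pericyte markers 2 fell in KO and 3 in WT muscle, of the fibre markers 3 in KO and 1 in WT muscle, and of the fibroblast markers 0 in KO and 1 in WT muscle. Of the macrophage markers 3 rose in KO and 1 in WT muscle, and of the satellite cell markers 2 rose in each, where 23.7% of all genes rose in KO and 18.7% in WT muscle. The macrophage sum, over 6 of 6, was 5.53 to 6.15 in KO denervated and 4.51 to 5.77 in KO control muscle, and 5.35 to 5.66 in WT denervated and 4.73 to 5.42 in WT control muscle. The sum of 5 of 5 fibre markers was 9.88 to 10.49 in KO denervated and 10.96 to 11.05 in KO control muscle, and 10.02 to 10.77 in WT denervated and 10.42 to 10.82 in WT control muscle. The adipocyte sum, over 4 of 5 markers, ranged from 6.14 to 6.39 in KO denervated and 5.95 to 6.95 in KO control muscle, and from 5.66 to 6.78 in WT denervated and 5.42 to 6.66 in WT control muscle. The 2 satellite cell markers that rose were Chrdl2 and Myf5, and Myf5 was well above background only on the 3 KO denervated arrays. Its rise in WT muscle is therefore a difference between arrays on which it was not well above background. The part of these changes in those of Peg3 and Dlk1 was not tested.

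Among 61 further imprinted genes, 55 were on the array by name and 40 were tested. In KO muscle 16 rose and 7 fell with denervation, where 23.7% of all genes rose and 23.2% fell, with a median change of 0.18 against 0.00 for all genes. In WT muscle 12 rose and 7 fell, where 18.7% of all genes rose and 20.6% fell, with a median of -0.04 against -0.02 for all genes. These counts and medians rest partly on the filter on dim probes, which was the same for all genes. Zdbf2 and Dio3, which rose in both genotypes, passed it only through the denervated arrays. Osbpl5, a lipid transfer protein gene of the Kcnq1 domain that also holds Cdkn1c, rose by 2.71 ± 0.17 in KO and 2.33 ± 0.17 in WT muscle. Tnfrsf23, a decoy receptor gene of the same domain, rose by 3.51 ± 0.41 in KO and 3.68 ± 0.41 in WT muscle, and was well above background on 2 KO control arrays and 1 WT control array. Neither differed between KO and WT denervated muscle at the threshold (0.29 and 0.54, limma adjusted p = 0.437 and 0.561).

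Snrpn, a splicing factor gene of the domain that holds Ndn, fell by 2.07 ± 0.26 in KO and 1.98 ± 0.26 in WT muscle, and Peg12 of the same domain fell by 0.83 and 0.85. Asb4 of the Peg10 domain fell by 2.01 ± 0.20 in KO and 1.90 ± 0.20 in WT muscle. Airn, the noncoding RNA that silences the paternal Igf2r copy in mice and runs antisense across its start, rose by 1.31 in KO and 1.25 in WT muscle. Zdbf2 was well above background on the denervated arrays and on 0 of the 6 control arrays, and was at least 2.24-fold higher in KO denervated than in KO control muscle, with at least 2.69-fold in WT muscle (limma adjusted p = 0.000299 and 2.52e-05). For these bounds a control array counted at the dimmest signal that it held well above background, or at the signal of Zdbf2 if that was brighter, and they are approximate. Between KO and WT denervated muscle 1 of the 40 was called, the transporter gene Slc22a18 of the Kcnq1 domain, higher in KO by 0.73 ± 0.16 (limma adjusted p = 0.0472), and its other probe gave 0.42, which was not called. In that comparison of denervated muscle 11 of the 40 had an unadjusted p under 0.05 in limma, and 2.19% of all genes were called. The interaction was called by limma for 0 of the 40, with 5 at an unadjusted p under 0.05, where 0.184% of all genes were called. Control muscle gave 0 calls between genotypes, with 2 at an unadjusted p under 0.05, where 0.00656% of all genes were called.

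**Figure D4:**
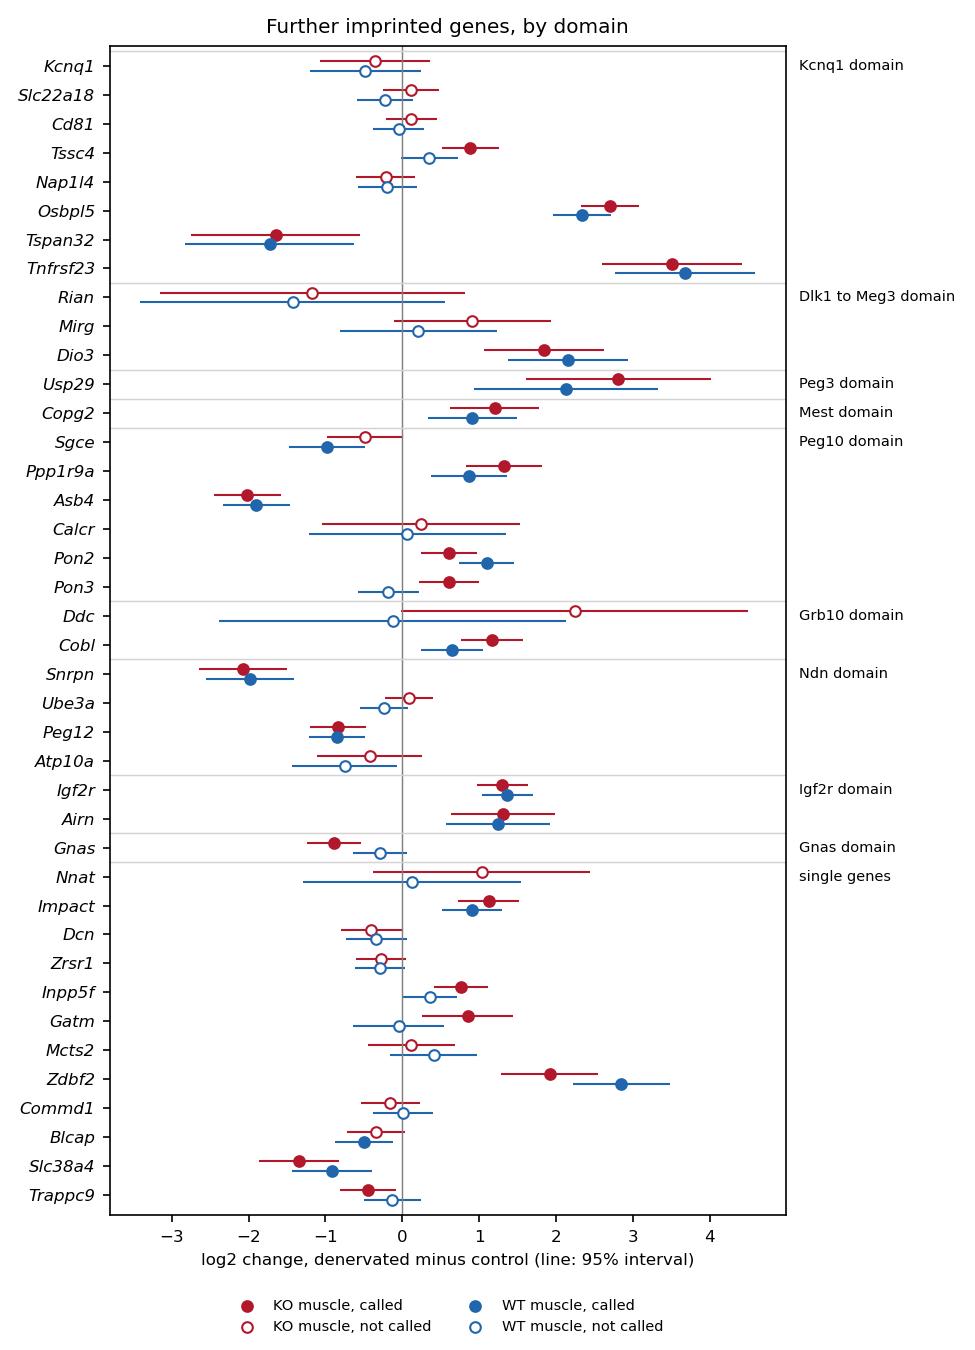
Log2 change with denervation in KO and WT muscle for the 40 further imprinted genes tested, grouped by imprinted domain as named at the right; points are limma estimates, lines are 95% intervals, and filled points have an adjusted p under 0.05. Osbpl5 and Tnfrsf23 lie at 2.71 and 3.51 in KO muscle, and Snrpn and Asb4 at -2.07 and -2.01.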

How the data were processed

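The deposited scanner files of 12 one-colour Agilent mouse arrays give an intensity for each spot, which per the file headers was background-subtracted and detrended but not normalized across arrays. The software was Feature Extraction, version 10.7.3.1 per the file headers and 10.5.1.1 per the submitters' processing notes. The deposited value table, also intensity on a linear scale and used only as an alternative, has nearly equal medians on every array.

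Spots of a probe were averaged after control spots and outlier flags had been removed. The log2 signal minus the 75th percentile of the array was used. Probes had to be well above background on all 3 arrays of at least 1 group, which left 22535 probes and 15234 genes, each represented by its brightest kept probe, and 234 of these had a missing value. Names came from the RefSeq table by accession (24367 probes), symbol (6307) or synonym (2425), and 8075 probes kept the name in the file.

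The test was limma's moderated test (version 3.58.1, R 4.3.3, two-sided), fitted to the 12 arrays at once with a mean for each of 4 groups, 8 residual and 3.15 prior degrees of freedom. P-values were adjusted by Benjamini-Hochberg within each of 6 comparisons. The fit was tested on simulated data. Files were read with pandas 2.3.3 and numpy 2.4.6 (Python 3.11.15), and plots drawn with matplotlib 3.10.9. The 10 genes, the lists and the alternatives were chosen with earlier results of these data known. The text names all 10 genes, the 5 Igf2 partners tested, Smad4, and the paralogs Cdkn1a, Cdkn1b, Grb14 and Maged1. The paralogs Dlk2 and Plagl2 were tested and were called in no comparison. Grb7, Plag1, Igf2bp1 and Igf2bp3 did not pass the filter on dim probes. The 2 nearest profiles by Euclidean distance are given for Cdkn1c, H19, Peg3 and Dlk1. Of the further imprinted genes only some are named. Those left out include called genes, as with Cobl, higher after denervation in both genotypes, and Gnas, lower after denervation in KO muscle.

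Groups and replicate numbers come from the sample titles. Same-numbered control and denervated arrays deviated together in WT muscle (r of 0.107 to 0.304 over 3 pairs) and less so in KO muscle (0.0152 to 0.175), and a replicate block was tried as an alternative. The highest of these r in each genotype, 0.304 and 0.175, was of a pair that shared a slide. WT and KO denervated replicate 2, which are of different genotypes and share slide 4, had an r of 0.299. These r therefore cannot show whether a number stands for a single mouse. The other alternatives were normexp background correction, quantile and median scaling, other filters and probe rules, slide and scan day as blocks, the value table and leaving out each array.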

Additional observations from a re-analysis of the deposited data

Results flagged for a closer look

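The interaction of genotype and denervation for Cdkn1c was 2.68 on the log2 scale and passed the threshold in limma (adjusted p = 0.0297). The call was lost with replicate numbers as a block (limma adjusted p = 0.0644), with slides as a block (0.0585), with normexp background correction (0.248), without a filter on dim probes (0.0986) and without any 1 of 7 single arrays (0.0514 to 0.0929). The rise was 3.41 in KO and 0.73 in WT muscle, and by replicate number the denervated minus control difference was 2.98, 4.48 and 2.78 in KO muscle and 0.61, 1.00 and 0.58 in WT muscle.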

How the results depend on the processing

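Of 720 single-gene results with an array left out, 706 kept their side of the threshold, 6 newly passed and 8 no longer passed. Of 660 under the other alternatives these counts were 647, 6 and 7. Results that were not called could change sign. With single arrays left out, the change of Meg3 with denervation in KO muscle was -0.30 to 0.53. No direction of a called result reversed. Normexp background correction called 2720 genes for denervation in KO and 1909 in WT muscle, and 25 (1 of the 10 imprinted genes) for KO against WT in denervated, 0 in control muscle, 0 (none of the 10) for the interaction and 6 for the average. The causes were not tested. Without a filter on dim probes, which tests more genes, these counts were 203 for KO against WT in denervated muscle, 0 in control muscle, 5 (0 of the 10) for the interaction and 62 for the average, and with a filter on all 12 arrays 12 for the interaction and 2 in control muscle. Control muscle gave 5 calls with quantile or median scaling, 4 with the mean of probes or the value table, and 6 with every probe alone. Slides as a block gave 0 calls there and 4 (0 of the 10) for the interaction, and scan days gave 2 there and 5 of the 10 for denervation in WT muscle, with Igf2 and Grb10 added. The replicate block gave 0 calls in control muscle and 0 of the 10 for the interaction (Cdkn1c 2.68), and changed no other call of the 10. With single arrays left out, denervation called 6101 to 7223 genes (3 of the 10) in KO and 4813 to 6119 (3 to 4) in WT muscle. KO against WT called 151 to 320 (1 to 2) in denervated and 0 to 2 (0) in control muscle, the interaction 5 to 51 (0 to 2), and the average 80 to 129 (1 to 2). Signal over background limits Dlk1 and the dim probes of Peg3, Meg3, Grb10 and Plagl1.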
